A study of Mus musculus with 15 samples.

Results

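The 9 genes described here encode the voltage-gated potassium channels that repolarise the cardiac action potential, and the small subunits bound to them. They are Kcnd2, Kcnd3, Kcnip2, Kcnip4, Kcna4, Kcna5, Kcnq1, Kcnh2 and Kcne1. They were found by their gene symbol among the 27845 gene names on the array and were read by 13 of its 41174 distinct probes. The mouse hearts fell into 3 groups with 5 arrays each. The first held *db/db* mice (C57BL/KLS-leprdb/leprdb), which lack a working leptin receptor and become obese and diabetic, whose rosiglitazone dose was 5 mg/kg per day over 4 months. Rosiglitazone is an agonist of the nuclear receptor PPARγ. The second held untreated *db/db* mice, and the third held nondiabetic *db/+* mice (C57BL/KLS-leprdb/lepr+), which carry 1 copy of the same receptor mutation. Total heart RNA, in the red channel, was hybridised on each array against 1 universal mouse reference RNA in the green channel. The age of the mice was not given in the labels.

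After a heartbeat begins, outward potassium currents bring the membrane potential of the heart muscle cell back to rest. In the mouse ventricle the fast transient outward current is carried by Kv4 channels, encoded by Kcnd2 and Kcnd3, and the potassium channel-interacting proteins (KChIPs), calcium-binding subunits encoded by the Kcnip genes, bring Kv4 channels to the membrane and slow their inactivation. Kcna4 encodes the channel of the slow transient outward current, and Kcna5 that of an ultrarapid delayed rectifier. Kcnq1 with its small partner Kcne1 forms the slow delayed rectifier, and Kcnh2 the rapid one, both of which dominate repolarisation in larger mammals rather than in the adult mouse.

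The probe sequences below, from the array files with mm8 coordinates, belong to the members on which the results turn. The capitals mark the bases that the Kcnip4 and Kcnip2 probes share where the end of the Kcnip2 probe was aligned without gaps to the start of the Kcnip4 probe, 16 of 22 bases (72.7%). The probes of Kcnip4, Kcnd3 and Kcnh2 cover more genome than their 60 bases and so cross an intron.
Kcnip4 A_51_P396978, chr5:48679170-48684277, minus strand: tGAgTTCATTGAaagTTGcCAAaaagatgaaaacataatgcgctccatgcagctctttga
Kcnip2 A_51_P237255, chr19:45847315-45847374, minus strand: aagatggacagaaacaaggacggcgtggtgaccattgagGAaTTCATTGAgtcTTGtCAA
Kcnd3 A_51_P104290, chr3:105795037-105796157, plus strand: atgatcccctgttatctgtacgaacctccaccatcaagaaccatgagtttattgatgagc
Kcnh2 A_51_P131175, chr5:23831435-23831707, minus strand: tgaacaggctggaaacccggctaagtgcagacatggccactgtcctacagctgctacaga
The other Kcnip4 probe, A_52_P319774 at chr5:48677898-48677957, lies 1212 bases further 3′ on the same strand and holds a stop codon in all 3 reading frames.

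All 9 genes had at least 1 probe whose heart signal stood well above background on 4 or more of the 5 arrays of a group, and 11 of the 13 probes were tested. The values below are the log2 ratio of heart over reference signal, in which a difference of 1 is a doubling. The first Kcnip4 probe and the Kcne1 probe A_52_P71704 were too dim to be tested. The log2 differences between the arrays of treated replicates 3 and 4 had a median absolute deviation, a measure of spread, of 0.12. For every other pair of arrays of 1 group this spread was at least 0.234. Treated replicates 3 and 4 were therefore averaged and counted as 1 sample. Thus n is 4 for treated hearts and 5 for each other group unless stated. A probe was called at an adjusted p under 0.05 in limma (Benjamini-Hochberg over the 27593 tested probes). Of the member probes, 3 were called between untreated *db/db* and *db/+* hearts (2 higher and 1 lower), where 7.76% of all tested probes were called. In treated hearts set against untreated *db/db* hearts 0 were called, as were 0% of all probes, although 2 member probes and 2423 of all probes had an unadjusted limma p under 0.05. Between treated *db/db* and *db/+* hearts 3 were called (2 higher and 1 lower), against 8.7% of all tested probes. The last count includes Kcnip4, which passed the filter on dim probes only through the treated hearts, unlike the other 10 tested probes. In both comparisons with *db/+* hearts the 1 lower call was the Kcnq1 probe A_52_P618494, which lies on the strand opposite to the gene. The median log2 difference over the 11 probes was -0.01, -0.02 and -0.02 in these 3 comparisons, and that over all tested probes was 0.01, -0.01 and 0.01. All 3 comparisons share groups and are not independent. Slide 1 held 4 *db/+* hearts, and slide 2 held 1 *db/+* heart and 3 untreated hearts. Slide 3 held 2 untreated and 2 treated hearts, and slide 4 held 3 treated hearts. Group and slide are thus largely confounded and cannot be fully told apart.

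**Figure D1:**
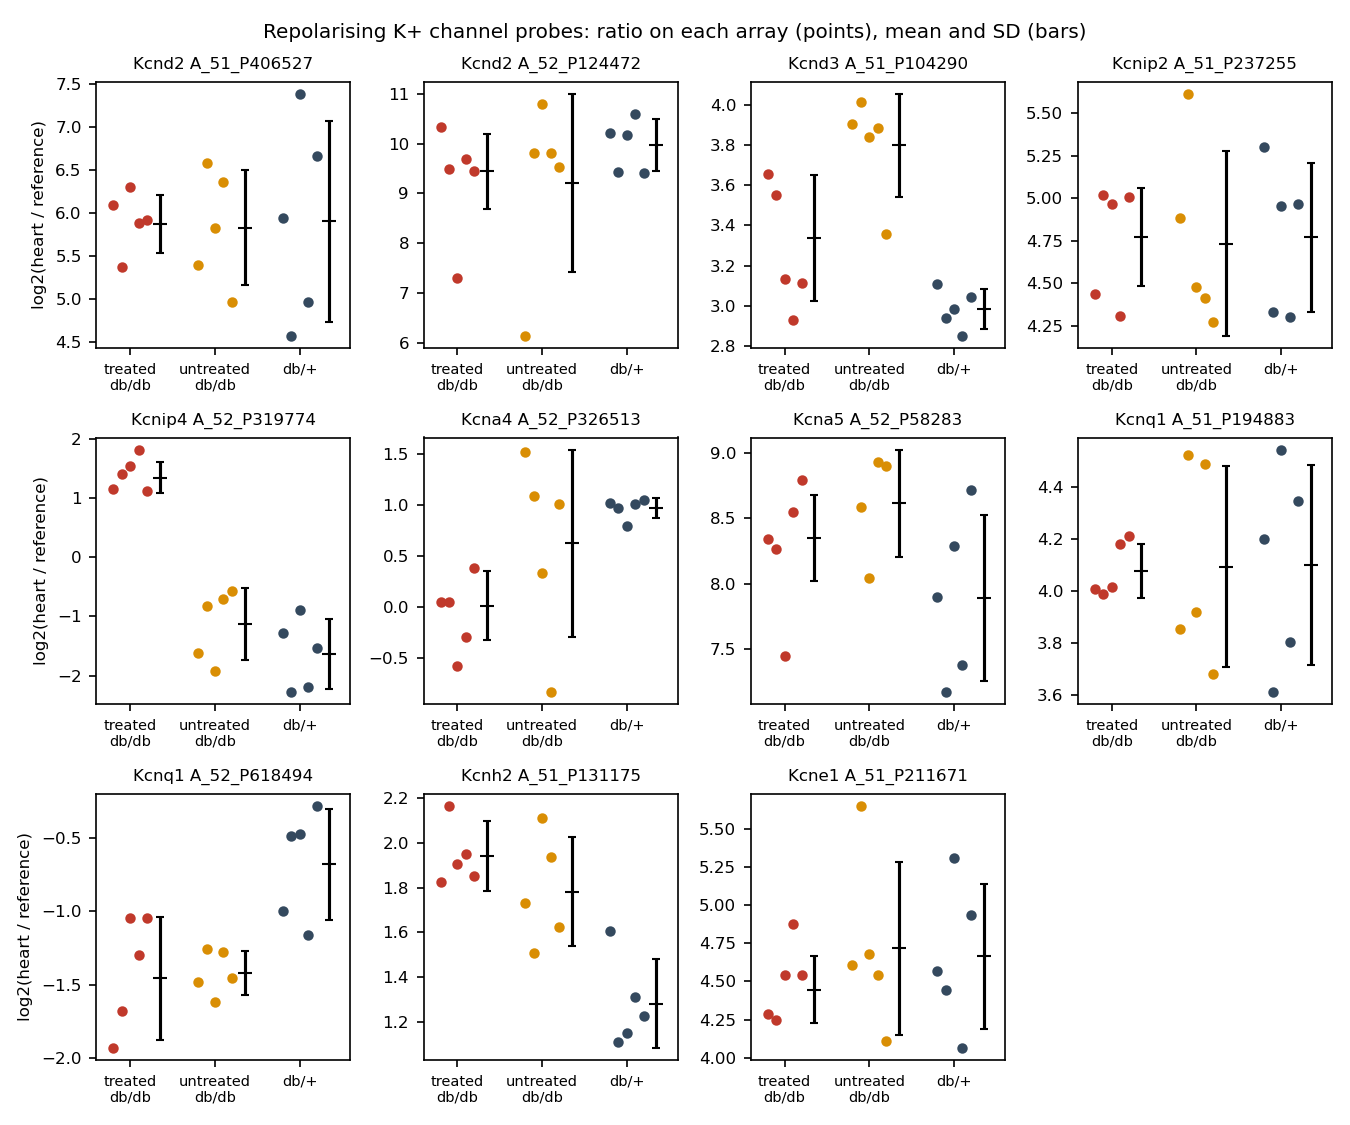
Log2 ratio of heart over reference signal (vertical axis, a panel for each of the 11 tested probes) on every array, with rosiglitazone-treated *db/db* hearts on the left, untreated *db/db* hearts in the middle and *db/+* hearts on the right; points are arrays, and the bar and whiskers are the mean and SD over the samples. Kcnip4 separates the treated hearts, all at 1.12 or above, from the other 10, all at -0.56 or below, and most other probes overlap among the groups.

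Among the KChIP genes, Kcnip4 separated the treated hearts from both other groups. It encodes KChIP4, known mainly from the brain, a splice form of which removes the fast inactivation of Kv4 channels. At probe A_52_P319774 the log2 ratio was 1.15, 1.41, 1.55, 1.82 and 1.12 in treated *db/db* hearts (replicates 1 to 5), -1.62, -0.83, -1.93, -0.70 and -0.56 in untreated *db/db* hearts, and -1.28, -2.28, -0.90, -2.19 and -1.54 in *db/+* hearts. Every treated heart was above every other heart, while untreated *db/db* and *db/+* hearts overlapped. The heart signal behind these ratios was 61.1 to 103.8 intensity units in treated, 6.4 to 23.7 in untreated *db/db* and 6.5 to 15 in *db/+* hearts. Each of the 5 treated arrays, and none of the other 10, passed as well above background, and the reference signal, 20.9 to 40.1, did so on no array.

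The probe entered the test only through the treated hearts, the group in which it is bright, so a difference was in part set by the filter, and its measured differences are against readings at background. The fold is therefore only a lower bound, set from the lowest signals that were well above background. Treated over untreated hearts gave at least 1.90-fold, with an unadjusted p of 3e-06 and an adjusted p of 0.083, which missed the threshold. Treated over *db/+* hearts gave at least 1.51-fold, with an adjusted p of 0.00017. The measured log2 ratios differed by 2.47 and 2.98 in these comparisons. This was the 1 tested member probe whose treated and untreated *db/db* hearts did not overlap, as was the case for 4.58% of all tested probes. Between untreated *db/db* and *db/+* hearts, both at background, no fold is given (adjusted p = 0.32).

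The reference RNA is the same on every array, so the heart channel was also examined alone, scaled between arrays. This was an alternative chosen after the data were seen. By heart signal alone, with the same filter and the same limit, the measured Kcnip4 difference was 2.18 between treated and untreated hearts (adjusted p = 0.014), the 1 member probe called where 0.257% of all probes were. Set against *db/+* hearts it was 2.64 (adjusted p = 0.00025). The Kcnip4 reference signal differed between the same groups by -0.29 (adjusted p = 0.34) and -0.34 (adjusted p = 0.48). Of the 4 slides, 1 held both *db/db* groups, and on it 2 treated hearts exceeded 2 untreated hearts by 1.91. With the slide as a fixed block the difference was still 1.91 but its adjusted p was 1.0, and treated *db/db* against *db/+* hearts, which share no slide, gave 1.99 with an adjusted p of 0.8. Another background correction (normexp with an offset of 50, then loess) cut the measured differences to 0.27 against untreated (adjusted p = 0.9) and 0.32 against *db/+* hearts (adjusted p = 0.051). The adjusted p against untreated hearts passed when treated replicates 3 and 4 were kept separate (0.016), under array weights (0.0098), with the slide as a random block (0.028) and, among the fits that left out 1 array, only without untreated replicate 4 (0.039). The random block used an estimated correlation within slides of -0.11, so that fit made no allowance for slides that differ.

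The first Kcnip4 probe, A_51_P396978, was not well above background in any heart, so its values are dim readings and it was left out of the main test. By these dim ratios the treated hearts did not overlap either other group, but the reference was well above background on only 1 array. In the scaled heart channel the lowest treated heart, 4.89, lay below the highest *db/+* heart, 4.94. Without the filter on dim probes, the limma adjusted p of the ratio was 0.43 against untreated and 0.013 against *db/+* hearts. Its log2 ratio was 0.78, 0.68, 0.43, 1.24 and 2.07 in treated *db/db* hearts, -0.85, -0.97, 0.00, -0.59 and -0.19 in untreated *db/db* hearts, and -1.17, -0.73, -0.46, -2.19 and -0.47 in *db/+* hearts.

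**Figure D2:**
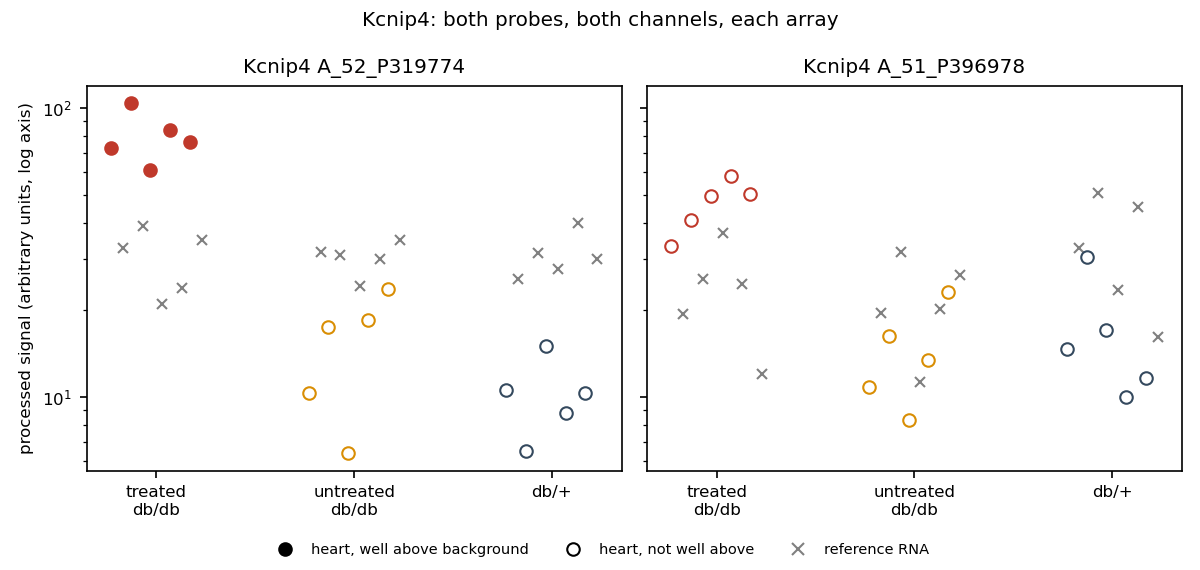
Processed signal of the 2 Kcnip4 probes on every array (vertical axis, intensity units on a log axis) in the heart channel and the reference channel, with treated *db/db*, untreated *db/db* and *db/+* hearts from left to right; filled points were well above background. At A_52_P319774 the 5 treated hearts reached 61.1 to 103.8 and are the filled points, whereas the reference signals of the 3 groups lay together between 20.9 and 40.1.

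Kcnip2, which encodes the principal KChIP of the ventricle, gave no called difference. Its ratio averaged 4.77 ± 0.29 in treated *db/db* hearts (SD, n = 4), 4.73 ± 0.54 in untreated *db/db* hearts and 4.77 ± 0.44 in *db/+* hearts (SD, n = 5 each). The groups overlapped, and treated minus untreated hearts was 0.04 (95% interval -0.55 to 0.63). By heart signal alone, treated hearts were lower than untreated hearts by 0.64 (interval -1.25 to -0.03, adjusted p = 0.34), with the reference channel lower by 0.68 (adjusted p = 0.23) on the same arrays.

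Of the Kv4 pore subunits, Kcnd3 (Kv4.3) differed between groups, and Kcnd2 (Kv4.2), which encodes the main pore subunit of the mouse ventricle, did not pass the test. The Kcnd3 ratio was 3.66, 3.55, 3.13, 2.93 and 3.11 in treated *db/db* hearts, 3.90, 4.01, 3.84, 3.89 and 3.36 in untreated *db/db* hearts, and 3.11, 2.94, 2.98, 2.85 and 3.04 in *db/+* hearts. Every untreated *db/db* heart was above every *db/+* heart, and the treated hearts spread over both. Untreated *db/db* hearts exceeded *db/+* hearts 1.76-fold, by 0.81 on the log2 scale (SE 0.14, interval 0.50 to 1.12, adjusted p = 0.0053). Treated minus untreated hearts was -0.46 (interval -0.79 to -0.13, unadjusted p = 0.0095, adjusted p = 0.45), and treated *db/db* minus *db/+* hearts was 0.35 (adjusted p = 0.16). On the slide that held both *db/db* groups, treated minus untreated hearts was only -0.017. There the treated hearts read 3.66 and 3.55 and the untreated hearts 3.89 and 3.36. The lower treated ratios, 3.13, 2.93 and 3.11, came from the slide that held treated hearts only. The part of the slides in the difference of -0.46 was not tested apart from these values.

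Read in the heart channel alone, Kcnd3 took another order. Its scaled log2 heart signal was 9.43, 9.21, 9.52, 9.42 and 9.32 in treated *db/db* hearts, 9.32, 9.06, 8.97, 9.24 and 9.20 in untreated *db/db* hearts, and 8.97, 8.58, 8.95, 8.88 and 8.89 in *db/+* hearts. The treated hearts were the high ones, above all *db/+* hearts. They exceeded *db/+* hearts by 0.50 (SE 0.11, interval 0.26 to 0.75, adjusted p = 0.015, 1.42-fold) and untreated hearts by 0.20 (interval -0.04 to 0.45, adjusted p = 0.47). Untreated *db/db* exceeded *db/+* hearts by 0.30 (interval 0.07 to 0.53, adjusted p = 0.11), no longer past the threshold.

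The Kcnd3 signal of the reference RNA moved with the groups as well. On the same scale it was 5.66 to 6.49 on the treated arrays, 5.04 to 5.84 on the untreated arrays and 5.64 to 6.03 on the *db/+* arrays. It was lower by 0.51 on untreated *db/db* than on *db/+* arrays (unadjusted p = 0.0091, adjusted p = 0.84) and higher by 0.66 on treated than on untreated arrays (unadjusted p = 0.0025, adjusted p = 0.12). It stood well above background on 5 treated, 2 untreated and 5 *db/+* arrays, and its SD over all arrays was 0.421, against a median of 0.138 over the tested probes. The part of the reference channel in the Kcnd3 ratio was not tested apart from these values.

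**Figure D3:**
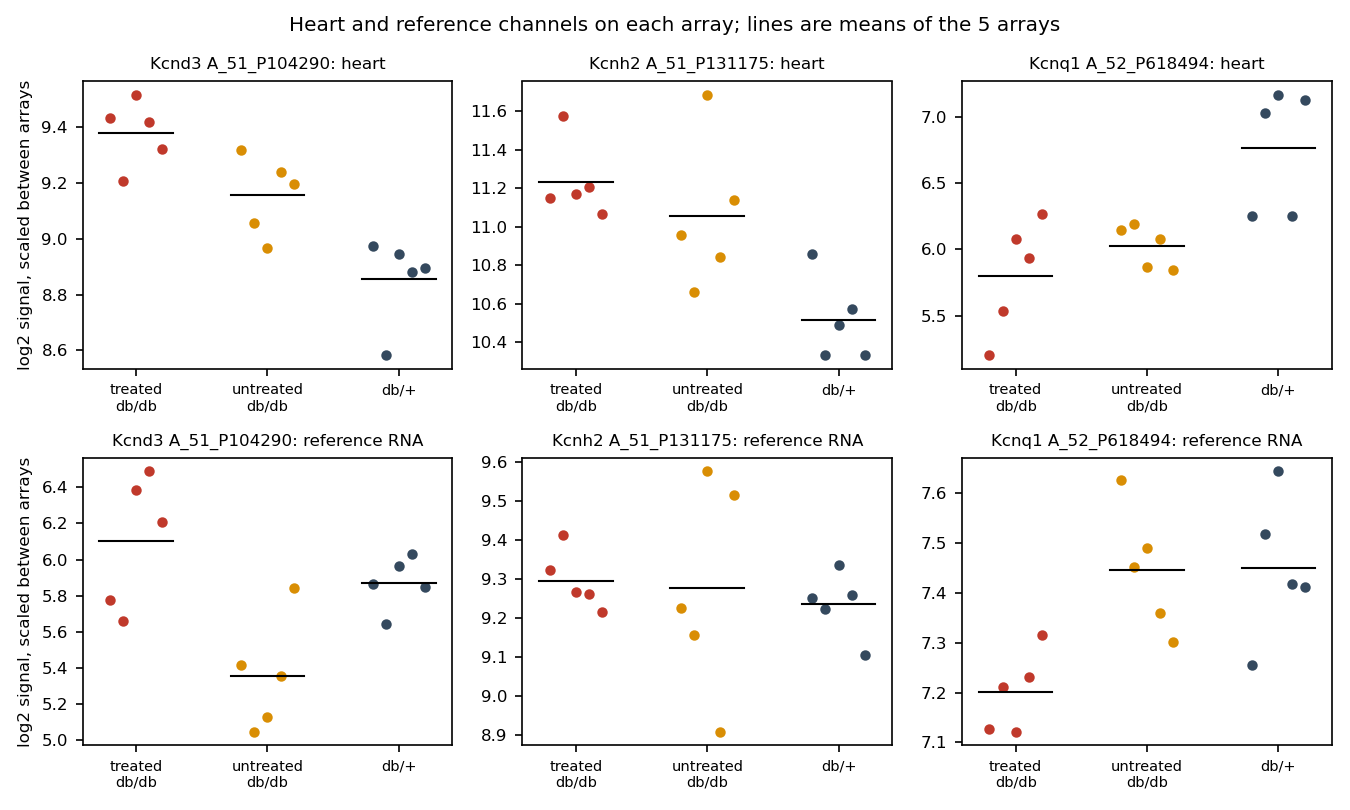
Scaled log2 signal (vertical axis) of Kcnd3, Kcnh2 and the Kcnq1 probe A_52_P618494 in the heart channel (upper row) and the reference channel (lower row), each point an array and each line the mean of 5 arrays, with treated *db/db*, untreated *db/db* and *db/+* from left to right. For Kcnd3 the treated hearts had the highest mean in the upper row while the untreated arrays had the lowest mean in the lower row, and for Kcnh2 the reference signals of the groups overlapped.

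Both Kcnd2 probes were read well above background in all 15 hearts, whereas the reference was well above background on 4 arrays at A_51_P406527 and on 2 at A_52_P124472, so their ratios rest on dim denominators. The heart channel alone is therefore given for this gene. At A_52_P124472 the scaled log2 heart signal ran from 13.20 to 13.44 in treated *db/db* hearts, 12.69 to 13.93 in untreated *db/db* hearts and 13.19 to 13.71 in *db/+* hearts. The groups overlapped, with untreated hearts the most spread. Treated minus untreated hearts was 0.13 (interval -0.34 to 0.60), treated *db/db* minus *db/+* hearts -0.19 (interval -0.66 to 0.27), and untreated *db/db* minus *db/+* hearts -0.33 (interval -0.77 to 0.12). At A_51_P406527 the 3 differences were 0.19, 0.07 and -0.12, all with intervals that include 0.

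The Kv1 genes Kcna4 and Kcna5 gave no called probe, though Kcna4 came near. Kcna4 (Kv1.4) had log2 ratios of 0.06, 0.05, -0.58, -0.29 and 0.38 in treated *db/db* hearts, 1.53, 1.1, 0.33, -0.83 and 1.01 in untreated *db/db* hearts, and 1.02, 0.98, 0.80, 1.02 and 1.05 in *db/+* hearts. All treated hearts were below all *db/+* hearts, and untreated replicate 4 was the lowest of the 15. By this ratio treated *db/db* hearts were 1.95-fold below *db/+* hearts (log2 difference -0.96, SE 0.36, interval -1.73 to -0.19), with an adjusted p of 0.11. The heart channel alone gave -0.99 (adjusted p = 0.12) while the reference differed by -0.03. Against untreated hearts the ratio of treated hearts was lower by 0.61 (interval -1.39 to 0.16, adjusted p = 0.68), and by 0.035 on the 1 slide that held both groups. The comparison with *db/+* hearts passed when only those 2 groups were fitted (adjusted p = 0.0082), with the slide as a random block (-1.05, adjusted p = 0.035) and without untreated replicate 4 (adjusted p = 0.017). Treated *db/db* and *db/+* hearts share no slide. The random block, with a correlation within slides of -0.11, made no allowance for slides that differ.

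The spread of Kcna4 was uneven. Its ratio had an SD of 0.34 in treated *db/db* hearts, 0.92 in untreated *db/db* hearts and 0.10 in *db/+* hearts. The 3 tested member probes whose treated *db/db* and *db/+* hearts did not overlap were Kcnip4 and Kcnh2, higher, and Kcna4, lower, as against 14.6% of all tested probes. Kcnip4 was tested only through the treated hearts, so its lack of overlap was in part set by the filter. Untreated *db/db* and *db/+* hearts did not overlap at 2 member probes, Kcnd3 and the Kcnq1 probe A_52_P618494, against 7.81% of all tested probes.

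Kcna5 (Kv1.5) was strongly read in every heart, but its reference was well above background on only 1 array, and untreated replicate 1 was left out because its spot carried an outlier flag. The processed heart signal was 3687 to 9648 in treated *db/db* hearts, 4353 to 5762 in 4 untreated *db/db* hearts and 1781 to 4414 in *db/+* hearts. By heart signal treated *db/db* hearts exceeded *db/+* hearts by 0.59 (interval 0.04 to 1.14, adjusted p = 0.15) and untreated *db/db* hearts did so by 0.55 (interval 0.0026 to 1.1, adjusted p = 0.21). Treated and untreated hearts differed by 0.04 (interval -0.54 to 0.62). By ratio untreated *db/db* hearts exceeded *db/+* hearts by 0.72 (interval 0.07 to 1.38, adjusted p = 0.16). This passed only with the slide as a random block (0.84, adjusted p = 0.048), a fit that made no allowance for slides that differ. With the flagged spot kept, the ratio difference was -0.28 in place of 0.72.

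Kcnh2, which encodes ERG1, the pore of the rapid delayed rectifier, was higher in both *db/db* groups than in *db/+* hearts. Its ratio was 1.82, 2.17, 1.90, 1.95 and 1.85 in treated *db/db* hearts, 1.73, 1.51, 2.11, 1.94 and 1.62 in untreated *db/db* hearts, and 1.61, 1.11, 1.15, 1.31 and 1.23 in *db/+* hearts. Every treated heart was above every *db/+* heart, whereas 1 *db/+* heart, replicate 1, lay within the range of the untreated hearts. Treated *db/db* hearts exceeded *db/+* hearts 1.58-fold, by 0.66 on the log2 scale (SE 0.14, interval 0.36 to 0.96, adjusted p = 0.013). Untreated *db/db* hearts exceeded *db/+* hearts 1.41-fold, by 0.50 (SE 0.13, interval 0.22 to 0.78, adjusted p = 0.035). Treated and untreated hearts differed by 0.16 (interval -0.14 to 0.46, adjusted p = 0.81).

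The reference signal of Kcnh2 was well above background on all 15 arrays and its group differences were 0.07, 0.04 and 0.03 for treated *db/db* against *db/+*, untreated *db/db* against *db/+* and treated against untreated. In the heart channel alone the treated hearts were higher than *db/+* hearts by 0.73 (adjusted p = 0.031) and the untreated hearts by 0.54 (adjusted p = 0.089). The call in treated hearts held when any 1 array was left out, at adjusted p between 0.0064 and 0.043. That in untreated hearts was lost, at adjusted p up to 0.08, without 1 of *db/+* replicates 2 to 5 or untreated replicates 1, 3 or 4. It was also lost with scaling between arrays (0.42, adjusted p = 0.052) and with only the 2 groups fitted (adjusted p = 0.08). On the slide that held 3 untreated *db/db* hearts and 1 *db/+* heart the differences were 0.56 for Kcnh2 and 0.87 for Kcnd3, and with the slide as a fixed block no member probe was called in any comparison.

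Kcnq1 was read by 2 probes on opposite strands. A_51_P194883 (chr7:143236225-143236284) lies on the plus strand, that of the gene. Its ratio averaged 4.08 ± 0.10 in treated *db/db* hearts (SD, n = 4), 4.09 ± 0.39 in untreated *db/db* hearts and 4.10 ± 0.38 in *db/+* hearts (SD, n = 5 each). The groups overlapped, and treated *db/db* minus *db/+* hearts was -0.02 (interval -0.48 to 0.43). By heart signal alone treated *db/db* hearts exceeded *db/+* hearts by 0.66 (interval 0.28 to 1.04, adjusted p = 0.035), with the reference channel higher by 0.68 (adjusted p = 0.42) on the same arrays. Its heart signal was 14930 to 24510 on treated, 10936 to 15848 on untreated and 5749 to 13995 on *db/+* arrays.

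The other Kcnq1 probe, A_52_P618494 (chr7:143067049-143067108), carries the Kcnq1 symbol but lies on the minus strand, so by its position it does not read the sense strand of the channel messenger. It holds a stop codon in every reading frame, and which transcript it reads was not settled. Its log2 ratio was -1.93, -1.68, -1.05, -1.30 and -1.05 in treated *db/db* hearts, -1.48, -1.26, -1.62, -1.28 and -1.45 in untreated *db/db* hearts, and -1.0, -0.49, -0.47, -1.16 and -0.28 in *db/+* hearts. Untreated hearts were all below *db/+* hearts, and treated hearts were all below 4 of the 5 *db/+* hearts. The ratio was lower by 0.77 in treated *db/db* (SE 0.21, adjusted p = 0.036) and by 0.74 in untreated *db/db* hearts (SE 0.20, adjusted p = 0.037), each against *db/+* hearts. The first call was lost in 5 and the second in 6 of 15 fits that left out 1 array, at adjusted p up to 0.11 and 0.084. Both were lost under normexp and loess (-0.25, adjusted p = 0.17, and -0.32, adjusted p = 0.065) and without the filter on dim probes (adjusted p = 0.058 and 0.062). The first was lost with only the 2 groups fitted (adjusted p = 0.082), and the second under array weights (adjusted p = 0.058).

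Kcne1 (minK) was tested at 1 of its 2 probes, A_51_P211671, and did not pass. Its ratio averaged 4.45 ± 0.22 in treated *db/db* hearts (SD, n = 4), 4.72 ± 0.57 in untreated *db/db* hearts and 4.66 ± 0.48 in *db/+* hearts (SD, n = 5 each), with overlap throughout. In the heart channel alone treated minus untreated hearts was -0.69 (interval -1.44 to 0.06, adjusted p = 0.41) and untreated *db/db* minus *db/+* hearts was 0.69 (interval -0.01 to 1.40, adjusted p = 0.22). At the other probe the heart signal was 5.5 to 16.8 over the 15 arrays, not well above background on any.

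In the heart channel alone, 5 member probes were called between treated *db/db* and *db/+* hearts, against 9.57% of all tested probes. Higher were Kcnip4, Kcnd3, Kcnh2 and Kcnq1 (A_51_P194883), and lower was the minus-strand Kcnq1 probe (-1.02, adjusted p = 0.02). Kcnip4 passed the filter only through the treated hearts, so its place in this count was in part set by the filter. At Kcnq1 A_51_P194883 the reference channel was higher by 0.68 on the same arrays. Between untreated *db/db* and *db/+* hearts 0 were called, against 6.3% of all tested probes, although Kcnd3, Kcnh2, Kcna5 and the minus-strand Kcnq1 probe had unadjusted limma p-values of 0.014, 0.0095, 0.049 and 0.0061.

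**Figure D4:**
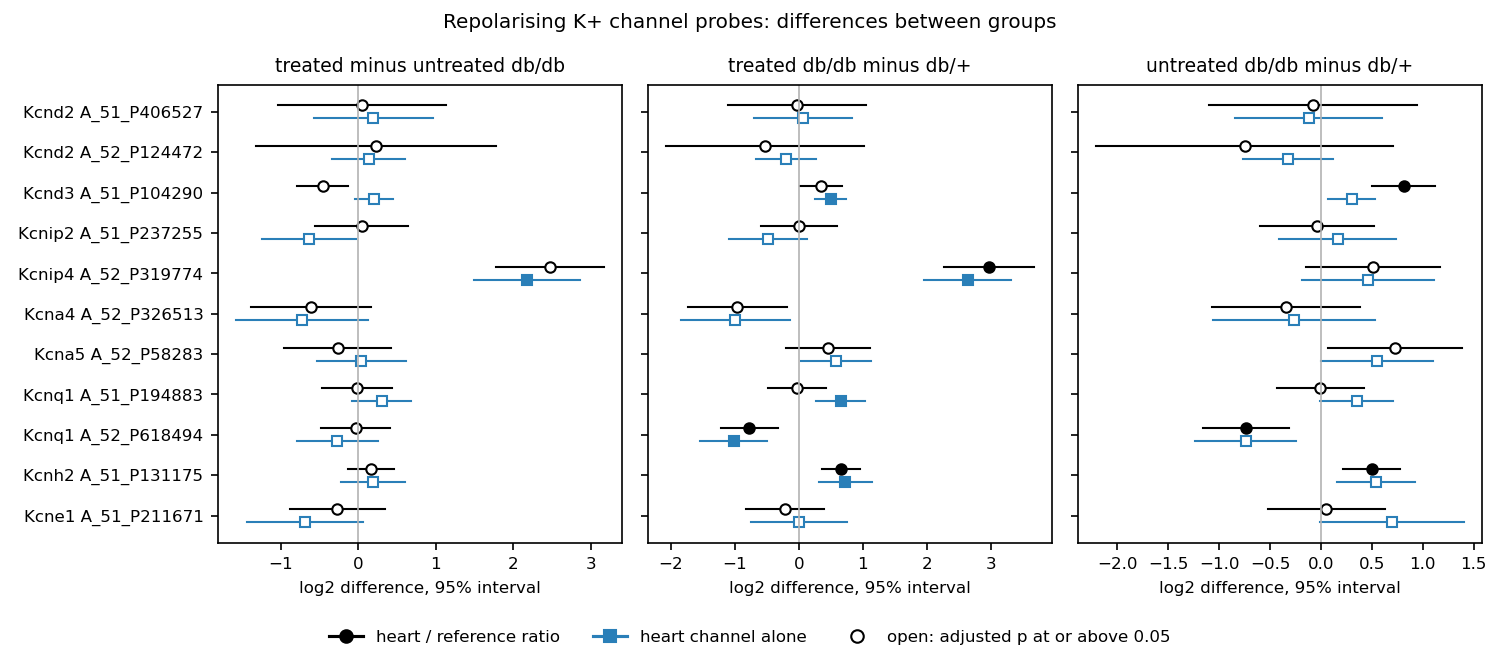
Log2 difference between groups (horizontal axis) with its 95% interval for each tested probe, from the ratio (black) and from the heart channel alone (blue), in a panel for each comparison; filled points passed an adjusted p of 0.05. Kcnip4 stands at 2.47 and 2.18 between treated and untreated *db/db* hearts, measured against hearts at background, and the Kcnd3 points of that comparison fall on opposite sides of 0.

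The other voltage-gated potassium channel subunits were examined as a list of 45 genes, of which 41 were on the array and 22 were tested with 27 probes. Between untreated *db/db* and *db/+* hearts 0 of these probes were higher and 2 lower, where 7.76% of all tested probes were called. Treated against untreated hearts gave 0 calls, with 3 at an unadjusted limma p under 0.05. Between treated *db/db* and *db/+* hearts 0 were higher and 3 lower, where 8.7% of all tested probes were called. The median differences of the 27 probes were 0.03, 0.09 and 0.13, beside 0.01, -0.01 and 0.01 over all tested probes. Kcnip3, a calcium-binding protein of the KChIP family, was lower in both *db/db* groups at 1 of its 2 probes. That probe, A_52_P185255, had ratios of -2.04 to -1.44 in treated *db/db* hearts, -2.0 to -1.40 in untreated *db/db* hearts and -1.32 to -1.03 in *db/+* hearts. Neither *db/db* group overlapped *db/+* hearts, and the differences were -0.56 (adjusted p = 0.023) and -0.52 (adjusted p = 0.027) for treated and untreated hearts. Both calls were lost under normexp and loess (-0.28, adjusted p = 0.16, and -0.38, adjusted p = 0.059). The second Kcnip3 probe, A_52_P203269, was too dim to be tested, and its ratios overlapped between the groups, at -1.12 to 0.02 in treated *db/db* hearts, -0.85 to 0.10 in untreated *db/db* hearts and -0.95 to -0.24 in *db/+* hearts.

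The other calls were Kcne3, a small single-span subunit (-1.30 in untreated *db/db* against *db/+* hearts, adjusted p = 0.046), Kcne1l (-1.40 in treated *db/db* against *db/+* hearts, adjusted p = 0.026) and Kcnq3, a pore subunit of the neuronal M current (-1.41 in treated *db/db* against *db/+* hearts, adjusted p = 0.031). The reference was well above background on only 2, 0 and 3 of the 15 arrays at these probes. By heart signal alone Kcne3 was -0.52 (adjusted p = 0.24), Kcne1l -0.80 (adjusted p = 0.14) and Kcnq3 -1.39 (adjusted p = 0.023). Under normexp and loess the ratio of Kcne3 was 0.14, that of Kcne1l -0.029 (adjusted p = 0.93) and that of Kcnq3 -0.29 (adjusted p = 0.55). The second Kcne3 probe gave -0.66 with an adjusted p of 0.19. Kcns3, a silent subunit that joins Kv2 channels, was also dim in the reference, and its ratio did not pass (1.09 in untreated *db/db* against *db/+* hearts, adjusted p = 0.17). Its heart signal was 180 to 264 in treated *db/db* hearts, 156 to 233 in untreated *db/db* hearts and 56.6 to 110 in *db/+* hearts. The heart channel alone was higher in treated (by 1.21, adjusted p = 0.0029) and in untreated *db/db* hearts (by 1.32, adjusted p = 0.0012) than in *db/+* hearts. The Kv1 pore genes Kcna6 (-0.65 between treated and untreated *db/db* hearts, adjusted p = 0.53) and Kcna1 (-0.74 between treated *db/db* and *db/+* hearts, adjusted p = 0.13) did not pass, nor did Kcnab1, a cytoplasmic β subunit of Kv1 channels (-0.37 between treated *db/db* and *db/+* hearts, adjusted p = 0.21).

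Among the genes that regulate these channels, those that did not pass included the transcription factor Klf15, an activator of Kcnip2 in mice (untreated minus *db/+* hearts 0.30 and 0.37, adjusted p = 0.14 and 0.16), the ubiquitin ligase Nedd4l (0.34, adjusted p = 0.15), the cardiac transcription factor Gata4 (0.48, adjusted p = 0.085) and the clock gene Arntl (0.82, adjusted p = 0.22).

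The genes whose ratio followed that of a member most closely over the 14 samples were, for Kcnip4, F2r, Wt1 and Sms (Pearson r 0.891, 0.884 and 0.881) and, for Kcnd3, Wdr13, Arhgap24 and Trim35 (r 0.935, 0.910 and 0.873). These are the highest of all tested probes and are given as a description, since the samples share their groups, slides and reference RNA.

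The defining genes of heart muscle were read in all groups, and none of 14 tested probes for 7 cardiomyocyte genes was called by the ratio. By heart signal alone 3 of them, all of the calcium release channel gene Ryr2, were higher in treated *db/db* than *db/+* hearts (by 1.26, 1.05 and 0.74, adjusted p = 0.031, 0.029 and 0.049). In whole-heart RNA, fewer cells of a type and less RNA per cell cannot be told apart. The summed scaled heart signal of 9 neuron and nerve genes was 16562 to 19289 in treated *db/db* hearts, 13809 to 17108 in untreated *db/db* hearts and 7984 to 9734 in *db/+* hearts. Such a sum is set mostly by its brightest genes. The median heart-channel difference from *db/+* hearts over the tested probes of that list was 0.35 in treated and 0.04 in untreated hearts. By ratio these medians were 0.33 and 0.30. Of 8 tested probes on that list, 2 were higher in each *db/db* group than in *db/+* hearts, both of Uchl1, and 1, of S100b, was lower in treated *db/db* than *db/+* hearts (-0.75, adjusted p = 0.0077). There were 0 calls between treated and untreated hearts, and Th was well above background in no heart. The sum over 4 atrial genes was 201220 to 336020, 168680 to 612200 and 222820 to 602170 in the treated *db/db*, untreated *db/db* and *db/+* hearts, and that over adipocyte genes was 214 to 314, 253 to 761 and 662 to 3099. By ratio, treated *db/db* against *db/+* hearts had 3 of 8 smooth muscle, 2 of 11 leukocyte and 1 of 6 skeletal muscle probes lower. The fibroblast list had 1 of 7 higher and the adipocyte list 2 of 4 lower, where 8.7% of all tested probes were called. Untreated *db/db* hearts gave the same counts, except 1 each for smooth muscle and leukocyte, where 7.76% were called. No called smooth muscle probe was the brightest of its gene. The part of these cell types in the results above was not tested. Across the arrays 56.4% to 75.6% of probes were well above background in the heart channel.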

How the data were processed

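The 15 arrays were Agilent 4x44K 2-colour arrays. Per the file headers, the authors read each spot's intensity in the red and green channels with Agilent Feature Extraction 9.5.1.1, including its background subtraction and dye normalization. The log10 ratio of heart (Cy5) over reference (Cy3) that the authors deposited was converted to log2. Spots with an outlier flag (0.922%) were left out, and spots of a probe were averaged. A probe was tested if its heart signal was well above background on 4 of 5 arrays of a group. Groups came from the labels. The 3 groups entered 1 fit in limma 3.58.1 (lmFit and eBayes, R 4.3.3) with 14 samples and 11 residual degrees of freedom, and p-values were adjusted by Benjamini-Hochberg over 27593 probes. The fit was tested on simulated data. The heart channel alone was Aquantile-scaled. Gene lists, members and tests were chosen with earlier results of these data known, and genes of the 2 other lists are named if a probe was called in any comparison, with up to 4 more a list by smallest p. A result of the list of regulators is not reported here. Probe positions are on mm8 as the files give them, and exon or UTR annotation of that build was not used here. The methods' SAM test was not run. Alternatives covered background correction, scaling, filters, slide and replicate blocks, array weights, the groups fitted and leaving out each array. The R packages data.table (version 1.17.8) and, for block correlations, statmod (version 1.5.0) were used, and figures Python 3.11.15 with matplotlib 3.10.9.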

Additional observations from a re-analysis of the deposited data

Results flagged for a closer look

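Among 33 groups of member values, 2 held an array far from the rest of its group. Chance alone gives about 1 in 20. At the Kcnd2 probe A_52_P124472, untreated *db/db* replicate 1 had a log2 ratio of 6.14, against 9.52 to 10.79 in the other untreated hearts, and the gap to the nearest took 0.728 of the group's range. Its reference signal was 108, against 5.8 to 12.7 on the other untreated arrays. For Kcnd3, untreated *db/db* replicate 5 had a ratio of 3.36, against 3.84 to 4.01 in the others, and the gap took 0.741 of the range. Its reference signal was 65.7, against 25.5 to 45.6. The part of the reference signal in either was not tested.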

How the results depend on the processing

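No array or slide was repeated with the dyes swapped, and the precision is limited by 4 or 5 samples a group and by dim signals. These were dim for Kcnip4 and Kcnq1 A_52_P618494 in the hearts and for Kcnd2, Kcna5 and Kcnd3 in the reference. The series' value table gave the same direction and call for all 40 differences examined, and the cause of the changes below was not tested. The comparisons are abbreviated as treated against untreated, treated against *db/+* and untreated against *db/+*. Member probes called numbered 3 untreated against *db/+*, 0 treated against untreated and 3 treated against *db/+*. They numbered 1, 0 and 1 where both channels had to be well above background on all arrays, which leaves fewer probes, and 0 in each with the slide as a fixed block. In the heart channel alone they numbered 0, 1 and 5. Kcnip4, in the counts of 1 and 5, passed the filter only through the treated hearts. Treated against untreated had 1 with an adjusted p under 0.1, under array weights, with the slide as a random block and with treated replicates 3 and 4 separate. Treated against *db/+* had 1 under normexp and loess. Leaving out 1 array gave 1 to 3, 0 to 1 and 2 to 4 member probes. Of the other subunits, 2 were called untreated against *db/+* and 3 treated against *db/+*. The first became 0 under array weights, with only the 2 groups fitted, with the slide as a fixed block and with both channels above background, 1 without the filter on dim probes, and 0 to 2 when 1 array was left out. The second became 0 under normexp and loess, with the slide as a fixed block and with both channels above background, and 1 to 3 when 1 array was left out.

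Replicate numbers did not pair the samples, since same-numbered samples correlated at -0.18 to 0.06. With the replicate number as a block and treated replicates 3 and 4 separate, 2, 0 and 4 member probes and 1, 0 and 3 probes of other subunits were called. The Kcnh2 call untreated against *db/+* was lost (0.50, adjusted p = 0.059), and Kcna4 passed treated against *db/+* (-1.05, adjusted p = 0.045). The block turned Kcnq1 A_52_P618494 treated against untreated (0.019), and, treated against *db/+*, Kcnd2 A_51_P406527 (0.012) and Kcnip2 (-0.025), as did keeping those replicates separate with no block (0.019, 0.012 and -0.025).

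All other changes of sign were of differences that had not passed, apart from Kcne3. Under normexp and loess untreated against *db/+* gave 0.10 for Kcna4, 1.26 and 1.52 for the Kcnd2 probes A_51_P406527 and A_52_P124472, 0.14 for Kcne3, 1.45 for Kcnip2 and 1.19 for Kcnq1 A_51_P194883. Treated against untreated gave -0.029 and -0.13 for the Kcnd2 probes, -0.63 for Kcnip2 and 0.071 for Kcnq1 A_52_P618494. Treated against *db/+* gave 1.23 and 1.40 for the Kcnd2 probes, 1.13 for Kcne1 and 1.15 for Kcnq1 A_51_P194883. In the heart channel alone treated against untreated gave 0.038 for Kcna5, 0.20 for Kcnd3, -0.64 for Kcnip2 and 0.30 for Kcnq1 A_51_P194883. Treated against *db/+* gave 0.072 for Kcnd2 A_51_P406527, 0.0037 for Kcne1, -0.48 for Kcnip2 and 0.66 for Kcnq1 A_51_P194883, and untreated against *db/+* gave 0.16 for Kcnip2 and 0.35 for Kcnq1 A_51_P194883. With the slide as a fixed block Kcna5 was -1.02 treated and -0.40 untreated against *db/+*, and Kcnip2 0.027 untreated against *db/+*. With it as a random block Kcnd2 A_51_P406527 was -0.043 treated against untreated and 0.023 untreated against *db/+*, Kcnip2 -0.051 treated against untreated and -0.058 treated against *db/+*, and Kcnq1 A_51_P194883 0.021 untreated against *db/+*. Array weights gave Kcnq1 A_51_P194883 0.032 treated against untreated and 0.023 treated against *db/+*, and Kcnd2 A_51_P406527 0.11 treated against *db/+*. Scaling between arrays gave Kcnip2 -0.20 treated against *db/+* and Kcne1 -0.12 untreated against *db/+*. Keeping flagged spots gave Kcna5 0.73 treated against untreated and -0.28 untreated against *db/+*.

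Leaving out 1 array turned the sign of near-zero differences. Untreated against *db/+* ranged from -0.41 to 0.29 and from -1.14 to 0.020 at the Kcnd2 probes A_51_P406527 and A_52_P124472, from -0.26 to 0.10 for Kcnip2, -0.57 to 0.017 for Kcna4, -0.13 to 0.10 for Kcnq1 A_51_P194883 and -0.18 to 0.21 for Kcne1. Treated against untreated ranged from -0.17 to 0.23 and from -0.54 to 0.62 at the Kcnd2 probes, -0.075 to 0.26 for Kcnip2, -0.12 to 0.090 for Kcnq1 A_51_P194883 and -0.17 to 0.12 for Kcnq1 A_52_P618494. Treated against *db/+* ranged from -0.36 to 0.34 for Kcnd2 A_51_P406527, -0.11 to 0.14 for Kcnip2 and -0.15 to 0.086 for Kcnq1 A_51_P194883.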
